A study of Rattus norvegicus with 12 samples.

Results

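The genes described here belong to the unfolded protein response of the endoplasmic reticulum (ER). They were 10 genes chosen by name: Hspa5, Hsp90b1, Sdf2l1, Dnajb9, Pdia4, Pdia6, Creld2, Manf, Xbp1 and Ddit3. Every array probe whose transcript accession matched 1 of these symbols was taken. Of the 10 genes, 9 were matched, by 10 of the 30367 probes, since Sdf2l1 has 2 probes. Manf had no match, and its level is not analysed here. All 9 matched genes passed the filter on dim probes and were among the 19412 features tested, 11110 of which carry a gene symbol.

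RNA came from the striatum of male Wistar rats and was measured on 12 Agilent arrays of 1 colour, 3 per group. Every rat, the controls included, had 6-hydroxydopamine, a toxin of dopamine neurons, injected into the left medial forebrain bundle, and had turned at least 7 times per min after 3 mg/kg methamphetamine. Treatment began 7 days after that challenge and was given daily for 7 days. The groups were the non-lesioned side after saline, the lesioned side after saline, the lesioned side after L-DOPA (100 mg/kg, given 30 min after benserazide, which blocks its conversion outside the brain), and the lesioned side after L-DOPA with zonisamide (50 mg/kg, given 30 min after L-DOPA). Dopamine is made from L-DOPA, and zonisamide, developed against epilepsy, is a further medicine for parkinsonism. Non-lesioned tissue came from the other hemisphere of injected rats, not from untouched animals, and no group received zonisamide alone. The design assigns 3 animals to each group, and whether both saline groups used the same animals is not stated. The p-values below measure the spread between these 12 arrays, and 3 arrays per group limit the precision of every value.

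The ER folds proteins that are secreted or sent to membranes. When unfolded protein accumulates there, the membrane sensors IRE1, PERK and ATF6 start a programme that slows translation, raises the genes of chaperones and folding enzymes, and removes misfolded protein through ER-associated degradation. Secretory cells depend heavily on this system, and its activation has been described in toxin models of Parkinson's disease. Hspa5 (BiP) is the HSP70 chaperone of the ER lumen that also holds the sensors inactive. Xbp1 is the transcription factor made active when IRE1 splices its RNA, and Ddit3 (CHOP) is a transcription factor of the PERK arm.

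Many genes of this response carry an ER stress response element in the promoter, which is bound by NF-Y together with ATF6. This element was searched because it is the sequence that ties the chaperone genes together. It was read as CCAAT and CCACG separated by any 9 bases, on both strands, in the RefSeq promoters (rat build GRCr8) from 250 bases before to 50 after each start site. Of the 10 genes, 8 have a promoter in that table, and 4 of these hold the element, against 22 of all 33469 promoters (0.0657%). In the sites below, read 5′ to 3′ in the direction of the element, capitals mark its fixed parts.
Hspa5, chr3:38452973-38452991: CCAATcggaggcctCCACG
Hsp90b1, upstream site, chr7:23012451-23012469: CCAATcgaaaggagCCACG
Hsp90b1, downstream site, chr7:23012347-23012365: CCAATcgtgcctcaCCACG
Creld2, chr7:121789239-121789257: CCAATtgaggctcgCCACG
Xbp1, chr14:84604558-84604576: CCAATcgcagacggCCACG

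The sites of Hspa5 and Xbp1 lie on the gene's strand, 24 and 46 bases before the start site. Hsp90b1 holds 1 site on its own strand and 1 on the opposite strand, 157 and 53 bases before the start site. The site of Creld2 lies on the opposite strand, 126 bases before the start. The 250 bases before the start site of 3 genes are shown on the gene's strand, with the elements in capitals. They are shown because these genes had their highest group mean after L-DOPA. For Creld2 that order depended on a processing step described below. Xbp1 also holds the element but is not shown, with a mean of 0.82 after L-DOPA and 0.91 with zonisamide. This choice follows the values, and whether the element goes with a change after L-DOPA was not tested.
Hspa5, chr3:38452766-38453015, plus strand: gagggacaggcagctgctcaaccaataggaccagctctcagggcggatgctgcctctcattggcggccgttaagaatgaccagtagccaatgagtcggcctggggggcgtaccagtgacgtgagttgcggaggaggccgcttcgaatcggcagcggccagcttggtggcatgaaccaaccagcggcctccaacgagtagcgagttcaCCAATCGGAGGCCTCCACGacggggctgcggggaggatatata
Hsp90b1, chr7:23012294-23012543, minus strand: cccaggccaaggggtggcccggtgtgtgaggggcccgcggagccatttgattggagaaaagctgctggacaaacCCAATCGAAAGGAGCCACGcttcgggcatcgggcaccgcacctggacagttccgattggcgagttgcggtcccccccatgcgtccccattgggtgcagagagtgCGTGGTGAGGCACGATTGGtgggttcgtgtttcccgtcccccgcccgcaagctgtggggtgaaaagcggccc
Creld2, chr7:121789134-121789383, plus strand: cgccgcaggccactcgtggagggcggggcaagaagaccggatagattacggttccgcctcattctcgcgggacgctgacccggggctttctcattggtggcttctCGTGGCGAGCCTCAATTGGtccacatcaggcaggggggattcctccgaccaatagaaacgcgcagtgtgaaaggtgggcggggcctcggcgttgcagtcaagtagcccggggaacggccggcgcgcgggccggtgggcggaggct

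The other motifs searched on both strands were ERSE-II (ATTGG, any 1 base, CCACG), the UPR element (TGACGTGG), the C/EBP-ATF element (TGATG, any 1 base, AA) and the cyclic AMP element (TGACGTCA). None of the 8 promoters held these letters in the 300-base window. They were present in 0.0508%, 0.595%, 3.98% and 1.83% of all promoters. Those of Ddit3, Pdia4, Sdf2l1 and Dnajb9 held none of the 5 motifs.

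Values below are log2 signals relative to the 75th percentile of each array, so 0 is the level of that percentile. They set 1 gene against itself across arrays and do not rank genes. Changes are limma estimates with moderated standard errors (SE), with the Benjamini-Hochberg adjustment of p-values taken over the 19412 features. Each gene was read from the mean of 2 spots of 1 probe, and gaps of more than 0.7 between spots are given with the gene. In bulk tissue, fewer cells of a type and less RNA per cell cannot be told apart. No gene of the set passed at an adjusted p under 0.05 in any of the 6 comparisons.

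The 75th percentile of signal ran from 793 to 1737 intensity units and 67.7% to 74.0% of probes were well above background. The spread of replicate spots ran from 3.74% to 27.8% and exceeded 20% on 5 arrays, which were all 3 non-lesioned arrays and replicate 3 of both drug groups. Spiny neuron markers, which define this tissue, had summed levels of 162 to 242 times the 75th percentile across all arrays. Single markers differed: of 10 tested, 1 passed as higher after L-DOPA than in lesioned saline (adjusted p = 0.0151 with limma). Groups did not overlap there for 5 of the 10, against 22.4% of all features. Another comparison, L-DOPA against the non-lesioned side, had 1 of the 10 pass as lower (adjusted p = 0.0483 with limma). Markers of choroid plexus, a secretory epithelium of the ventricle wall, varied within every group: their summed levels were 9.51 to 154 on the non-lesioned side, 3.85 to 24.0 in lesioned saline, 23.4 to 182 after L-DOPA and 9.22 to 115 with zonisamide. All 11 tested markers of the list had higher means after L-DOPA than after saline (median 2.87), all 11 had lower means after the lesion (median -1.68) and with zonisamide added (median -1.54), and none passed. Summed vascular markers were 3.83 to 4.69 on the non-lesioned side, 4.43 to 5.62 in lesioned saline, 6.33 to 9.20 after L-DOPA and 3.14 to 4.38 with zonisamide. Summed cortical neuron markers, of which 2 of 5 were tested, were 0.202 to 0.273 on the non-lesioned side, 0.350 to 0.568 in lesioned saline, 0.897 to 1.74 after L-DOPA and 0.251 to 0.608 with zonisamide, so that the L-DOPA arrays exceeded all others. Of those 2, Nptx1, named after its values were seen, rose after L-DOPA against the non-lesioned side (2.43 ± 0.29, adjusted p = 0.014 with limma). It fell with zonisamide added (-1.76 ± 0.29, adjusted p = 0.0404), and Neurod6 did not pass in any comparison. After L-DOPA against lesioned saline, Nptx1 was at 1.45 ± 0.29 (adjusted p = 0.074 with limma). Neurod6 was at 0.31 ± 1.19 there, an error too wide to show a rise, so the sum does not speak for both markers. Summed blood markers were 64.8 to 79.8, 70.5 to 73.2, 64.1 to 111 and 40.0 to 57.9 in the same order of groups. The part of these cells in the results below was not tested.

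**Figure D1:**
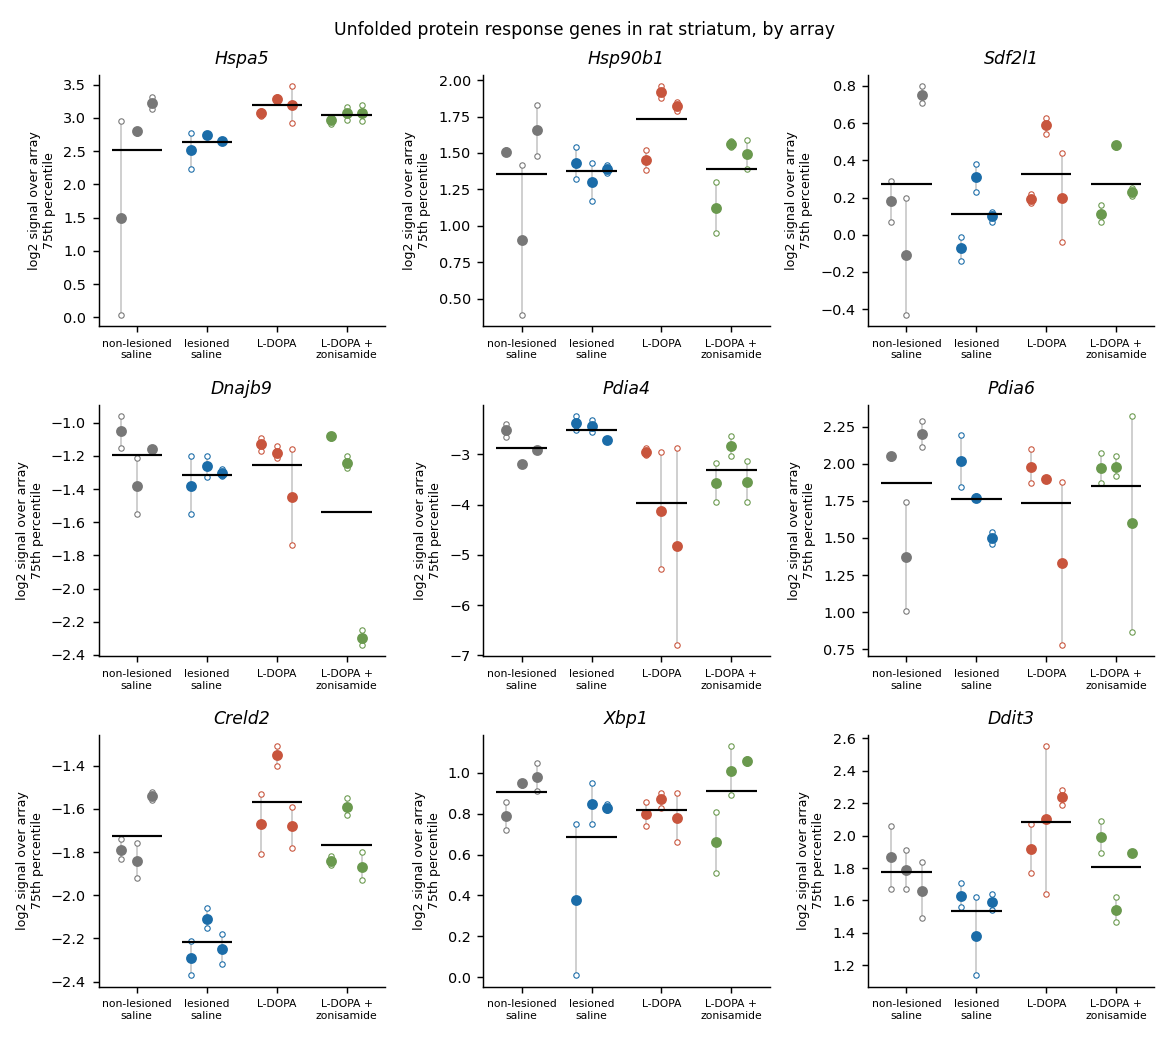
Log2 signal of the 9 measured genes relative to each array's 75th percentile, by group. Filled points are arrays, open points the spots behind them, and bars group means (n = 3); the L-DOPA arrays of Hspa5, Creld2 and Ddit3 all lie above lesioned saline, and 2 L-DOPA arrays of Pdia4 have spots far apart.

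Lesioned and non-lesioned striatum after saline were compared first. The lesioned side was also the injected side, so dopamine loss, hemisphere and the injection itself cannot be told apart. The set lay slightly low on the lesioned side: 6 of the 9 genes had lower means, with a median log2 change of -0.11 against 0.05 over all features. Creld2 and Ddit3 were lower on every lesioned array than on every non-lesioned one. These 2 of 9 genes compare with 17% of all features whose groups did not overlap; with 3 arrays against 3, an exact permutation test of 1 gene cannot go below p = 0.1. None of the 9 passed with limma, 1 had an unadjusted p under 0.05, and 0% of all features passed. An unadjusted p under 0.05 was found for 1646 features.

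After L-DOPA, compared with saline on the lesioned side, Creld2, Ddit3, Hspa5 and Hsp90b1 were higher on all 3 arrays than on any saline array, and Pdia4 was lower on all 3. Means were higher for 7 of the 9 genes, with a median of 0.22, against 46.7% of all features and a median of -0.03. The 5 genes without overlap compare with 22.4% of all features. None of the 9 passed with limma, while 0.433% of all features did. An unadjusted p under 0.05 was found for 3 of the 9, Creld2, Ddit3 and Pdia4, and for 2192 features. The interval of every change except those of these 3 genes included 0.

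When zonisamide was added to L-DOPA, 6 of the 9 genes had lower means, with a median of -0.15 against -0.03 over all features. Hspa5 was the only gene of the 9 whose groups did not overlap, against 17.3% of all features, and its closest arrays both stood at 3.07. With the brighter spot of each probe, chosen after the data were seen, none of the 9 was without overlap, against 17.5% of all features. None of the 9 passed with limma, where 0.479% of all features did. None had an unadjusted p under 0.05, which 2408 features had. Log2 changes ran from -0.34 to 0.65.

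With both drugs against lesioned saline, 7 of the 9 genes had higher means, with a median of 0.17 against -0.05. Creld2 and Hspa5 were higher and Pdia4 lower without overlap, 3 of 9 against 18.1% of all features. None of the 9 passed with limma and 0% of all features did. An unadjusted p under 0.05 was found for 1 of the 9, Creld2, and for 1424 features. These comparisons share arrays: the L-DOPA arrays enter the comparisons with saline and with zonisamide, and the lesioned saline arrays enter all but the zonisamide comparison.

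**Figure D2:**
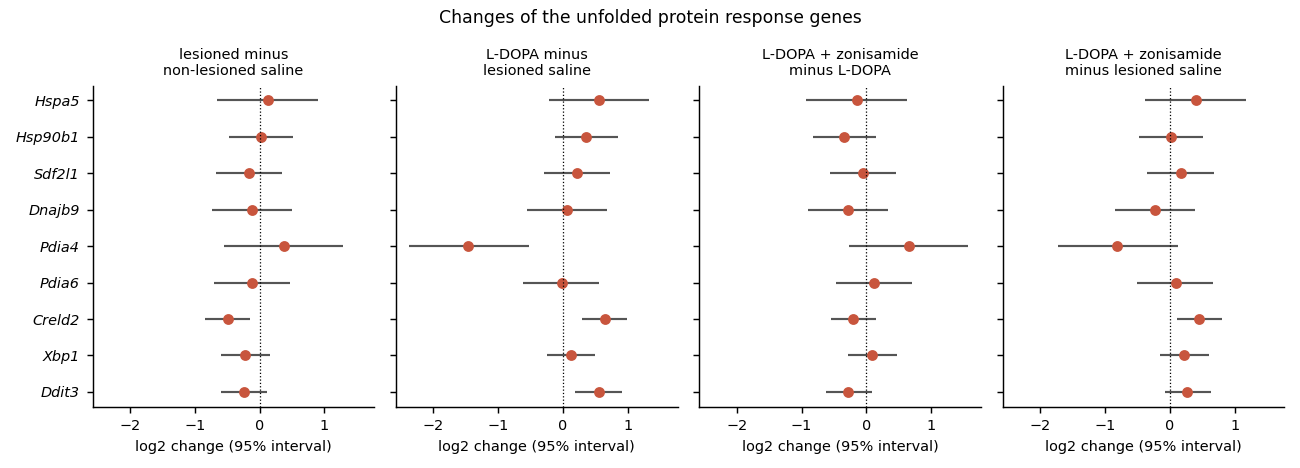
Log2 change with its 95% interval (limma, n = 3 per group) of the 9 genes in 4 comparisons. Intervals that exclude 0 are those of Creld2 in 3 of the panels and of Ddit3 and Pdia4 after L-DOPA, from -1.46 for Pdia4 to 0.65 for Creld2; none had an adjusted p under 0.05.

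Against the non-lesioned side, L-DOPA arrays had higher means for 5 of the 9 genes, with a median of 0.05. Only Ddit3 had groups without overlap, against 18.9% of all features, and none of the 9 passed where 1.16% of all features did. With both drugs, 5 of the 9 were higher with a median of 0.00 and 0 of the 9 had groups without overlap, against 7.19% of all features. None passed with limma, as 0% of all features did, and 0 of the 9 and 822 features had an unadjusted p under 0.05. Lesioned saline had the lowest mean of the 4 groups for Creld2, Ddit3, Xbp1 and Sdf2l1, and L-DOPA the highest for Hspa5, Hsp90b1, Creld2, Ddit3 and Sdf2l1. For Creld2 this order did not hold without detrending, where lesioned saline had the highest of its 4 means, at -2.08.

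Among the chaperones, Hspa5 was measured at 2.51, 2.75 and 2.65 in lesioned saline and at 3.07, 3.29 and 3.20 after L-DOPA. With zonisamide it was 2.97, 3.07 and 3.07. On the non-lesioned side it was 1.5, 2.80 and 3.23. The L-DOPA arrays were higher than all lesioned saline arrays, and those with zonisamide lay between both groups, while the non-lesioned arrays ran from the lowest of all 12 into the range of the L-DOPA arrays.

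The L-DOPA difference of Hspa5 was 0.55 ± 0.35 (SE, 1.47-fold, 95% interval -0.22 to 1.33, adjusted p = 0.599 with limma). The low array, replicate 1 of the non-lesioned side, had spots at 0.04 and 2.96, a gap of 2.92. On the other 11 arrays the spots of Hspa5 lay within 0.56 of each other. Taking the brighter spot of every probe, an alternative chosen after the data were seen, the non-lesioned values were 2.96, 2.82 and 3.31. The L-DOPA difference was then 0.57 ± 0.16 (adjusted p = 0.157) and the lesion difference -0.30 ± 0.16, against 0.13 ± 0.35 with both spots. With brighter spots, 3 of the 9 genes were lower on the lesioned side without overlap, Hspa5 with Creld2 and Ddit3, against 19.1% of all features. When non-lesioned replicate 1 was left out, the lesion difference of Hspa5 was -0.38 ± 0.17.

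Adding zonisamide gave Hspa5 a difference of -0.15 ± 0.35, and within the 3 slides that held both drug groups it was -0.11, -0.13 and -0.23. Within the 2 slides that held saline and L-DOPA arrays of the lesioned side, the L-DOPA difference was 0.56 and 0.54. Each slide gives 1 pair of arrays and no error of its own.

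Hsp90b1 (GRP94) is the HSP90 of the ER lumen. It was 1.43, 1.30 and 1.39 in lesioned saline, 1.45, 1.92 and 1.82 after L-DOPA, 1.12, 1.56 and 1.49 with zonisamide, and 1.51, 0.90 and 1.66 on the non-lesioned side. Replicates 2 and 3 of L-DOPA stood above all other arrays, while replicate 1 exceeded the highest saline array by little. The low non-lesioned array had spots 1.03 apart. The L-DOPA difference was 0.36 ± 0.22 (adjusted p = 0.590 with limma), 0.02 within the first slide and 0.62 within the other. The zonisamide difference was -0.34 ± 0.22 (adjusted p = 0.595), and -0.33, -0.33 and -0.36 within slides.

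Sdf2l1 is a lumenal protein that works with Hspa5 and its J-domain partners. Its brighter probe was -0.07, 0.31 and 0.10 in lesioned saline, 0.19, 0.59 and 0.20 after L-DOPA, 0.11, 0.48 and 0.23 with zonisamide, and 0.18, -0.11 and 0.75 on the non-lesioned side. All 4 groups overlapped. The L-DOPA difference was 0.22 ± 0.23 with this probe and -0.11 ± 0.27 with the second probe, which has a single spot. The probes thus differed in sign, and both intervals include 0.

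Dnajb9 (ERdj4), a J-domain cochaperone of Hspa5 that restrains IRE1, was -1.38, -1.26 and -1.30 in lesioned saline and -1.13, -1.18 and -1.45 after L-DOPA. With zonisamide it was -1.08, -1.24 and -2.30, and on the non-lesioned side -1.05, -1.38 and -1.16. Replicate 3 with zonisamide stood alone at -2.30, and both of its spots were low, 0.09 apart. The zonisamide difference was -0.29 ± 0.28 with this array and 0.09 ± 0.16 without it.

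Pdia4 and Pdia6 are protein disulfide isomerases, which form and rearrange disulfide bonds in proteins being folded. Pdia4 was -2.38, -2.43 and -2.72 in lesioned saline and -2.95, -4.12 and -4.83 after L-DOPA. It was -3.56, -2.84 and -3.54 with zonisamide, and -2.52, -3.19 and -2.92 on the non-lesioned side. The L-DOPA and zonisamide arrays were all below the lesioned saline arrays.

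The L-DOPA difference of Pdia4 was -1.46 ± 0.41 (2.74-fold lower, 95% interval -2.38 to -0.53, adjusted p = 0.205 with limma). Most of it came from 1 of the 2 spots. The first spot was -3.01, -2.95 and -2.87 on the L-DOPA arrays, and the second -2.88, -5.28 and -6.79, the last not well above background. In lesioned saline the spots had means of -2.60 and -2.41. With zonisamide they lay 0.76 and 0.82 apart on replicates 1 and 3. With the brighter spot of each probe the difference was -0.49 ± 0.23 (adjusted p = 0.416), and the zonisamide difference went from 0.65 ± 0.41 to -0.09 ± 0.23. Without replicate 1 of L-DOPA, whose spots lay 0.13 apart, Pdia4 passed at -1.96 ± 0.31 (adjusted p = 0.0289 with limma), and so did its difference from the non-lesioned side, -1.60 ± 0.31 (adjusted p = 0.0401). Those values rest on the 2 arrays with discordant spots.

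Pdia6 was 2.02, 1.77 and 1.5 in lesioned saline, 1.98, 1.90 and 1.33 after L-DOPA, 1.97, 1.98 and 1.60 with zonisamide and 2.05, 1.37 and 2.20 on the non-lesioned side. Its group means spanned 0.13, the smallest range of the 9 genes. The L-DOPA difference was -0.02 ± 0.26, with an interval from -0.61 to 0.56. The lowest L-DOPA array and the lowest zonisamide array, replicate 3 in both, had spots 1.10 and 1.45 apart, and the lowest non-lesioned array had spots 0.73 apart.

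Creld2 is an ER-resident protein with EGF-like domains that is induced by ER stress and secreted in part. It was -2.29, -2.11 and -2.25 in lesioned saline, and -1.79, -1.84 and -1.54 on the non-lesioned side. After L-DOPA it was -1.67, -1.35 and -1.68, and with zonisamide -1.84, -1.59 and -1.87. All 9 other arrays lay above the 3 lesioned saline arrays, and the remaining 3 groups overlapped with each other.

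The lesion difference of Creld2 was -0.49 ± 0.15 (1.41-fold lower, adjusted p = 0.502), the L-DOPA difference 0.65 ± 0.15 (1.57-fold, 95% interval 0.30 to 0.99, adjusted p = 0.124) and the difference with both drugs 0.45 ± 0.15 (adjusted p = 0.656 with limma). Within the 2 slides the L-DOPA difference was 0.62 and 0.75. Its 2 spots were within 0.28 of each other on every array. Both lie near 1 edge of the array, in rows 358 and 366 of 384 rows and columns 33 and 38 of 164 columns.

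The pattern of Creld2 depended on a step of the scanner software that detrends signal across the array surface. The ratio of its processed signal to its background-subtracted signal, which shows the size of that step, ran from 0.795 to 2.64 between arrays. For the other probes of the set it stayed at or under 1.81. Without detrending, the means ± SD were -2.08 ± 0.18 in lesioned saline, -2.09 ± 0.75 after L-DOPA, -2.16 ± 0.68 with zonisamide and -2.24 ± 0.65 on the non-lesioned side. The group means were then closer to each other than the SD of any group, and the spread within 3 of the groups was several times that of the detrended values, whose SDs were 0.10 to 0.19. Under normexp background correction with quantile normalization, which also leaves out detrending, the L-DOPA difference was 0.04 ± 0.35 (adjusted p = 0.981) and the lesion difference -0.01 ± 0.35.

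**Figure D3:**
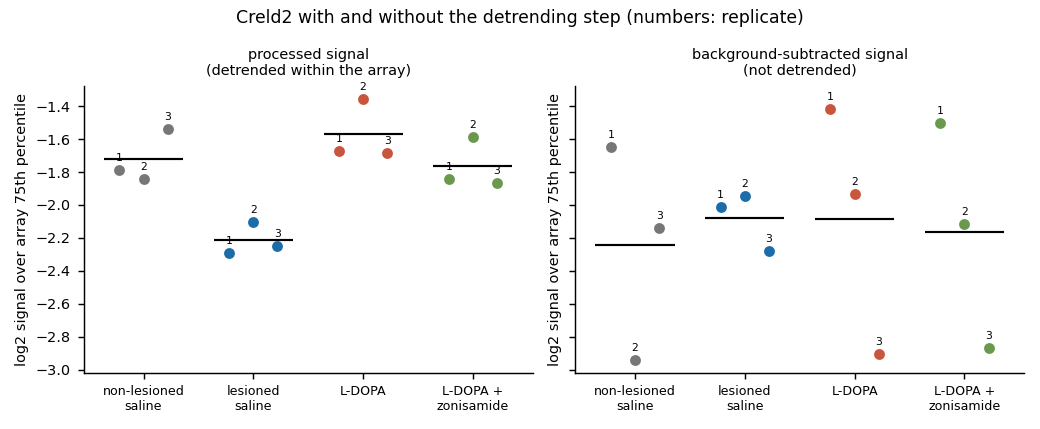
Creld2 on each array, as log2 signal relative to the array's 75th percentile, from the processed signal (left) and the background-subtracted signal without detrending (right). Points are arrays numbered by replicate and bars are group means (n = 3); L-DOPA and lesioned saline means are -1.57 and -2.22 on the left and -2.09 and -2.08 on the right.

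Without detrending, Hspa5 had means of 2.86 ± 0.13 (SD) in lesioned saline and 3.48 ± 0.12 after L-DOPA, and Ddit3 had 1.74 ± 0.14 and 2.39 ± 0.20. For Hsp90b1 the means were 1.43 ± 0.11 and 1.91 ± 0.25. For these 3 genes the difference was at least as large as with detrending.

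Among the transcription factors, Xbp1 was 0.38, 0.85 and 0.83 in lesioned saline, 0.80, 0.87 and 0.78 after L-DOPA, 0.66, 1.01 and 1.06 with zonisamide, and 0.79, 0.95 and 0.98 on the non-lesioned side. The groups overlapped and the L-DOPA difference was 0.13 ± 0.17 (interval -0.25 to 0.50). The low saline array had spots at 0.01 and 0.75. The position of the probe in the transcript is not given in the sources used here, so spliced and unspliced Xbp1 RNA are not distinguished.

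Ddit3 was 1.63, 1.38 and 1.59 in lesioned saline and 1.92, 2.10 and 2.24 after L-DOPA. It was 1.99, 1.54 and 1.89 with zonisamide and 1.87, 1.79 and 1.66 on the non-lesioned side. Every L-DOPA array exceeded every saline array of both sides, and the lesioned saline arrays were the lowest group, although 1 zonisamide array fell among them. The L-DOPA difference was 0.55 ± 0.16 (1.46-fold, 95% interval 0.19 to 0.91, adjusted p = 0.221 with limma) and lay at 0.29 and 0.72 within the 2 slides. The lesion difference was -0.24 ± 0.16 (adjusted p = 0.691) and the zonisamide difference -0.28 ± 0.16 (adjusted p = 0.543). Replicate 2 of L-DOPA had spots at 1.64 and 2.55, and with the brighter spots the L-DOPA difference was 0.65 ± 0.16 (adjusted p = 0.128).

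With the brighter spot of every probe, the genes higher after L-DOPA without overlap were Hspa5, Creld2, Ddit3 and Dnajb9, with Pdia4 lower, again 5 of 9 against 23.8% of all features. Hsp90b1 left this group and Dnajb9 entered it. Means were higher for 8 of the 9, with a median of 0.26 against 0.02 over all features.

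The summed vascular and cortical neuron markers given above were higher on all 3 L-DOPA arrays than in lesioned saline. The sums of choroid plexus and blood markers had higher medians. Single markers were less uniform: of 7 vascular markers, 5 had higher means after L-DOPA (median 0.25). Groups did not overlap for 1 of these 7 and for 1 of the 2 cortical neuron markers, against 22.4% of all features. The vascular markers were more uniform in 2 other comparisons. With zonisamide added, 0 of the 7 were higher (median -0.83) and 5 were without overlap, against 17.3% of all features. For L-DOPA against the non-lesioned side all 7 were higher (median 0.76) and 4 were without overlap, against 18.9%. The part of these cells in the differences was not tested. Transthyretin (Ttr), an abundant transcript of choroid plexus, was near-equal on 3 arrays, at 4.35 on lesioned saline replicate 2, 4.31 on L-DOPA replicate 1 and 4.28 on zonisamide replicate 1. On these arrays Hspa5 stood at 2.75, 3.07 and 2.97, Ddit3 at 1.38, 1.92 and 1.99, and Creld2 at -2.11, -1.67 and -1.84. Their summed vascular markers were 4.43, 6.33 and 3.70 and their cortical neuron markers 0.568, 1.74 and 0.608. The highest Ttr values were 7.27 and 6.89 on L-DOPA replicates 2 and 3, 6.73 on non-lesioned replicate 3 and 6.67 on zonisamide replicate 3. Hspa5 on those 4 arrays was 3.29, 3.20, 3.23 and 3.07, and Ddit3 was 2.10, 2.24, 1.66 and 1.89. On zonisamide replicate 2, where Ttr was 2.72, Hspa5 was also 3.07 and Ddit3 was 1.54. These are single arrays picked by their Ttr level, and whether either gene follows choroid plexus was not tested.

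**Figure D4:**
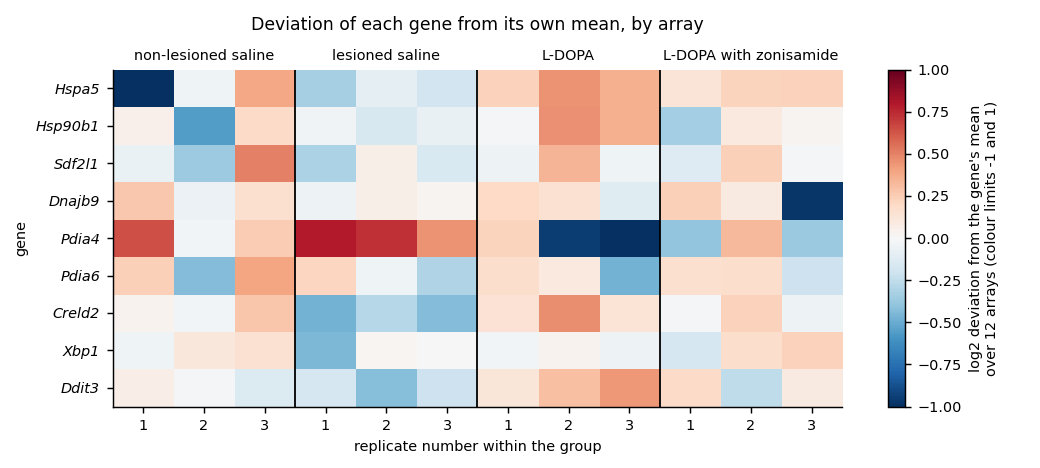
Deviation of each gene from its own mean over 12 arrays, in log2 units, with colour limits at -1 and 1 (values beyond them take the end colour). Columns are arrays by group and replicate; the lesioned saline arrays are mostly blue apart from Pdia4, and L-DOPA replicate 2 is above the mean for 8 of the 9 genes.

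The genes did not move as 1 block from array to array. Of the 9 genes, 8 were above their own mean on non-lesioned replicate 3, on L-DOPA replicate 2 and on zonisamide replicate 2. On the lesioned saline arrays, 2, 4 and 3 of the 9 were above it, and on non-lesioned replicate 2 it was 1. Replicates of the same group could thus differ as much as the groups did. The pooled SD within groups was 0.15 for Creld2, 0.17 for Ddit3 and 0.18 for Xbp1, each in the lowest 16.3% of all features or below, and 0.46 for Hspa5 and 0.55 for Pdia4.

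The genes whose profile over the 12 arrays was most like that of Hspa5 were Nucb2, Dnajc15, Zmiz1, Ube2f and Ska2, with Pearson r from 0.92 to 0.95. Without the 2 arrays farthest from the median of Hspa5 these values were 0.74, 0.81, 0.74, 0.41 and 0.58, so the likeness rested in part on those 2 arrays, 1 of them the array with discordant spots. Among the other genes of the set, Creld2 went from r = 0.43 to 0.92 and Hsp90b1 from 0.26 to 0.75 when these arrays were left out. Sdf2l1 went from 0.43 to 0.66, Ddit3 from 0.22 to 0.61 and Pdia6 from -0.15 to 0.41. Xbp1 went from 0.33 to 0.14, Dnajb9 from -0.23 to -0.02 and Pdia4 from -0.56 to -0.61. The values of Creld2 here are the detrended ones. For Ddit3 the 5 most alike were Gjb6, Clybl, Sc5d, Il1rn and Gpat3, at 0.90 to 0.92 with all arrays and 0.83 to 0.92 without its 2 farthest. Pdia4 stood at -0.85 with Ddit3, and the other genes of the set ran from -0.23 for Pdia6 to 0.52 for Creld2. The Pdia4 values include L-DOPA replicates 2 and 3, whose spots lay 2.33 and 3.92 apart. These are descriptions over 12 arrays that share slides, tissue composition and group differences.

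The wider pathway was read from lists of named genes, of which 6 held 68 tested genes in all. Of the sensors, Eif2ak3 (PERK), Atf6 and Atf6b were measured. None of the 3 passed in any comparison. After L-DOPA all 3 had lower means, with a median of -0.10; Atf6b was at -0.18 ± 0.20 and Atf6 at -0.10 ± 0.24. With zonisamide added, 2 of 3 were higher, Eif2ak3 by 0.39 ± 0.16 (adjusted p = 0.341) and Atf6b by 0.39 ± 0.20. After the lesion Eif2ak3 was at -0.20 ± 0.16 and Atf6 at 0.15 ± 0.24.

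Of 15 other ER chaperones and folding enzymes, 11 had higher means after L-DOPA, with a median of 0.22, the same median as the 9 genes above. None passed with limma. The smallest p-values were those of Dnajb11 (ERdj3), a cochaperone of Hspa5 (0.44 ± 0.15, adjusted p = 0.296), and calreticulin (Calr), a lectin chaperone of glycoproteins (0.54 ± 0.22, adjusted p = 0.401). Dnajb11 was -0.32, -0.29 and -0.46 in lesioned saline and -0.05, 0.13 and 0.16 after L-DOPA, without overlap. After the lesion 4 of 15 were higher (median -0.09), with Calr at -0.77 ± 0.22 (adjusted p = 0.494) and calnexin (Canx) at -0.34 ± 0.17. With zonisamide added, 5 of 15 were higher (median -0.17), with Calr at -0.51 ± 0.22 and Pdia5 at -0.81 ± 0.45. The differences of Calr turned to 0.18 after the lesion and -0.23 after L-DOPA under normexp with quantile normalization.

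Of 11 genes of ER-associated degradation, 8 were higher after L-DOPA (median 0.15) and all 11 were higher with both drugs against saline (median 0.24), against 43.5% of all features. None passed. Derl1 and Derl3, channel proteins of retrotranslocation, had L-DOPA differences of 0.37 ± 0.16 and 0.42 ± 0.16 (adjusted p = 0.430 and 0.360 with limma), and that of Derl3 was 0.02 ± 0.15 with the mean of its probes. With both drugs Derl3 was at 0.38 ± 0.16 and Herpud2 at 0.33 ± 0.15. After the lesion 3 of 11 were higher (median -0.16), with Derl1 at -0.27 ± 0.16 and Herpud2 at -0.24 ± 0.15. With zonisamide added, Herpud2 was at 0.40 ± 0.15 and the ubiquitin ligase Syvn1 (HRD1) at 0.36 ± 0.15, while 6 of 11 were higher (median 0.02).

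The PERK-ATF4 arm, to which Ddit3 belongs, was mixed. After L-DOPA, 9 of 18 tested genes were higher, with a median of -0.03, the same as all features. None passed. Ddit4 (REDD1), an inhibitor of mTORC1, was lower on all 3 L-DOPA arrays (1.01, 1.09 and 1.16) than in lesioned saline (1.68, 1.85 and 2.05), a difference of -0.77 ± 0.20 (adjusted p = 0.154 with limma). With the mean of its probes Ddit4 passed at -1 ± 0.18 (adjusted p = 0.0452). Cebpg, which forms dimers with ATF4, was at 0.43 ± 0.13 (adjusted p = 0.254). Cebpb, another factor of the C/EBP family, had a lesion difference of -0.61 ± 0.23, a zonisamide difference of 0.67 ± 0.23 (adjusted p = 0.256) and a difference of 1.00 ± 0.23 with both drugs (adjusted p = 0.515). After the lesion 9 of 18 were higher (median 0.01), Psat1 of serine synthesis at 0.30 ± 0.19. With zonisamide added 9 of 18 were higher (median 0.03), Atf5 at 0.45 ± 0.19.

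Of 10 genes of translocation into the ER, 6 were higher after L-DOPA (median 0.02), 4 after the lesion (median -0.05) and 4 with zonisamide added (median -0.05). None passed. Sec63, which recruits Hspa5 to the translocon, had an L-DOPA difference of -0.37 ± 0.14 and a zonisamide difference of 0.33 ± 0.14 (adjusted p = 0.330 and 0.345 with limma). Sec61a1, the translocon channel, had a zonisamide difference of 0.44 ± 0.19. Ssr1 had an L-DOPA difference of 0.41 ± 0.15 (adjusted p = 0.334) and a lesion difference of -0.28 ± 0.15; the mean of its probes gave 0.08 for the lesion.

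The heat shock genes of the cytosol, a response separate from that of the ER, held the only gene of the 6 lists that passed. Bag3, a cochaperone of HSP70 in selective autophagy, was 0.09, -0.35 and -0.25 on the non-lesioned side, 0.13, 0.07 and -0.12 in lesioned saline, 0.54, 1.10 and 0.85 after L-DOPA, and -0.06, -0.14 and -0.18 with zonisamide. The L-DOPA arrays were above all 9 others. Bag3 rose 2.00-fold against the non-lesioned side (log2 1.00 ± 0.18, adjusted p = 0.0367 with limma). Against lesioned saline its difference was 0.81 ± 0.18 (adjusted p = 0.1) and with zonisamide added -0.95 ± 0.18 (adjusted p = 0.0565). With slide as a random block, that zonisamide difference passed at -0.95 ± 0.17 (adjusted p = 0.0398). The call against the non-lesioned side held in 10 of 23 alternative settings, with adjusted p from 0.0201 to 0.270 and the difference between 0.76 and 1.14. It was lost when any saline array of either side, or L-DOPA replicate 2 or 3, was left out. The small heat shock protein Hspb1 had an L-DOPA difference of 1.29 ± 0.40 (adjusted p = 0.247) and a zonisamide difference of -1.24 ± 0.40 (adjusted p = 0.235). Its L-DOPA values were -1.21, 0.75 and -0.08, against -1.63, -1.43 and -1.36 in lesioned saline. Without L-DOPA replicate 1, Hspb1 passed in both comparisons, at 1.81 ± 0.28 (adjusted p = 0.0265 with limma) and -1.75 ± 0.28 (adjusted p = 0.0248). Bag3 passed there too, at 0.95 ± 0.18 (adjusted p = 0.0471) and -1.10 ± 0.18 (adjusted p = 0.0287). Of the 11 genes, 8 were higher after L-DOPA (median 0.13), 2 with zonisamide added (median -0.11) and 5 after the lesion (median -0.08), where Dnaja1 was at -0.26 ± 0.16. Hspe1, the cochaperonin of mitochondria, had a lesion difference of -0.44 ± 0.14 with its brightest probe and 0.61 with the mean of its probes, which disagreed.

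With both drugs against lesioned saline, no gene of the 6 lists passed. The higher means included Creld1, a relative of Creld2, at 0.43 ± 0.21, Eif2ak3 at 0.34 ± 0.16, Sec61a1 at 0.31 ± 0.19 and the HSP110 chaperone Hspa4 at 0.19 ± 0.14. Lower means included Cdnf, a secreted relative of Manf, at -0.90 ± 0.43, Ddit4 at -0.81 ± 0.20 and Hsp90aa1 at -0.55 ± 0.38, which went to 0.00 without zonisamide replicate 3. Of the 15 chaperones 10 were higher (median 0.06), of the 18 PERK-ATF4 genes 10 (median 0.01), of the 10 translocation genes 6 (median 0.13) and of the 11 heat shock genes 7 (median 0.05).

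Against the non-lesioned side, the L-DOPA arrays had Ddit4 at -0.86 ± 0.20 (adjusted p = 0.0748 with limma). Ddit4 passed with the mean of its probes (-0.98 ± 0.18, adjusted p = 0.0368) and without zonisamide replicate 3 (-0.86 ± 0.16, adjusted p = 0.0499). Trib3, a pseudokinase induced by ATF4 and Ddit3, was at 1.08 ± 0.29 (adjusted p = 0.120). Its signal was very dim, at -6.33, -6.33 and -7.11 on the non-lesioned side and -5.24, -5.49 and -5.80 after L-DOPA. On non-lesioned replicates 1 and 3 only a share of 0.5 of its spots was well above background. Pdia5 was at 1.25 ± 0.45 and, without non-lesioned replicate 3, at 0.73 ± 0.37. Dnajb11 was at 0.36 ± 0.15, Derl3 at 0.43 ± 0.16 (-0.06 with the mean of its probes), Herpud2 at -0.30 ± 0.15, Ssr3 at 0.74 ± 0.38, Ssr2 at -0.33 ± 0.19, and Eif2ak3 and Atf6b both at -0.24. With both drugs every adjusted p was 1, and Ddit4 again had a lower mean, at -0.89 ± 0.20. Atf3 was at -0.86 ± 0.37, Calr at -0.73 ± 0.22, Cdnf at -0.91 ± 0.43, Sec61a1 at 0.54 ± 0.19, Derl3 at 0.40 ± 0.16 and Hsp90ab1 at -0.47 ± 0.17. These 2 comparisons share the non-lesioned arrays.

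**Figure D5:**
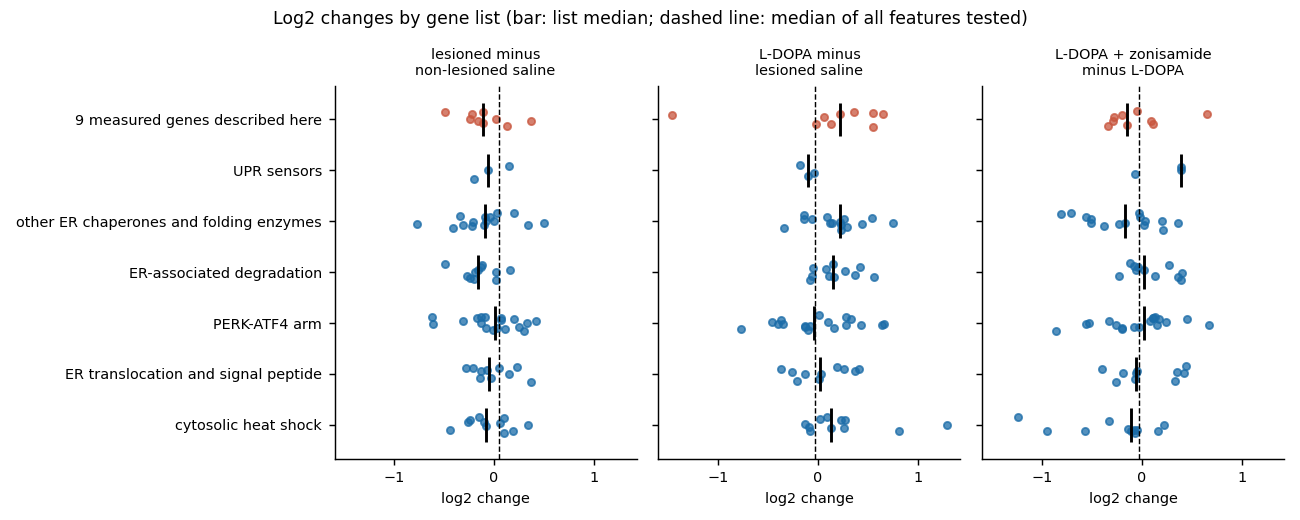
Log2 change of each gene in the 9 measured genes and the 6 wider lists, in 3 comparisons. Points are genes with a random vertical offset, bars list medians and the dashed line the median of all features; after L-DOPA the bars of the 9 genes and of the other ER chaperones both lie at 0.22, and that of the PERK-ATF4 arm at -0.03.

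The ER stress response element was also followed across all promoters, a reading chosen after values had been seen. It occurred in 21 named genes, of which 14 were tested, among them Calr, Canx, Derl3 and Dnajc3 beside the 4 genes above. After L-DOPA 12 of the 14 had higher means, with a median of 0.24, and without the 4 genes 8 of 10 did, with a median of 0.20. None passed, and groups did not overlap for 1 of these 10, Ppm1l at 0.42 ± 0.32, against 22.4% of all features. With zonisamide added, 3 of the 14 were higher (median -0.17), and after the lesion 8 were (median 0.01).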

How the data were processed

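Striatal RNA of 12 samples, 3 in each of 4 groups taken from the labels, was labelled with Cy3 and hybridised to Agilent arrays of 62976 spots. The deposited intensity values came from Agilent Feature Extraction 10.7, per the submitters' processing notes, and per the file headers the processed signal was background-subtracted and detrended across the array surface. The main values are log2 processed signal minus each array's 75th percentile over non-control spots (4259 control spots were left out), averaged over spots of a probe. Probes were kept when, on all arrays of at least 1 group, a share of at least 0.5 of their spots was well above background (21469 of 30367). A probe can thus enter through 1 group where it is high. The 9 measured genes of the set also passed with this filter on all 12 arrays. Accessions were matched to symbols through tables from RefSeq, in which 17328 probes had 1 symbol and 13039 none. For a gene with several probes the brightest was used.

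Groups were compared with limma 3.58.1 in R 4.3.3 (with data.table, version 1.17.8), with all 4 groups in 1 fit (8 residual degrees of freedom) and Benjamini-Hochberg adjustment at 0.05; the code was tested on simulated data. No depth exists for arrays, so the number of arrays limits precision. Same-numbered arrays were checked for pairing by the correlation of their deviations from group means. It was 0.37, 0.19 and 0.25 between the 2 drug groups, which also shared slides, so pairing and slide cannot be told apart. For L-DOPA against the non-lesioned side it was 0.31 for replicate 1, on a shared slide. It was 0.05 and 0.11 for replicates 2 and 3, on different slides. The main fit used no block in any comparison, the drug groups included, and the replicate block was run as an alternative. Alternatives were quantile normalization, normexp (offset 50) with quantile normalization, 2 other filters, 2 rules for several probes, only the groups compared, the replicate block, slide as a fixed or random block, leaving out each array or the 5 of high spot spread, and, added after seeing the data, the brighter spot of each probe.

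The genes named by rule are all 10 of the set in every comparison. From the 6 wider lists they are every gene that passed or otherwise the 2 of smallest p per list. The rule also covers the 5 genes most like Hspa5 and Ddit3, and Ttr as marker. Outside it, Nptx1 was named after its values were seen, with Neurod6 as the other tested cortical neuron marker. Dnajc3 and Ppm1l come from the element reading, chosen after values had been seen. The members and lists were chosen with earlier results of these data known. Promoter sequences are RefSeq's (GRCr8).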

Additional observations from a re-analysis of the deposited data

How the results depend on the processing

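Of the changes of the 9 genes under 24 settings, 1260 values were counted as kept, 4 reversed, 2 passed and 3 moved. For the 25 of 54 changes of at least 1 SE, kept means the same direction and side of the threshold. Their size was not judged, so Creld2 after L-DOPA counts as kept at 0.04 under normexp. For smaller changes, kept means not passing and a shift under the gene's pooled SD within groups, whatever the sign. The lesion difference of Hspa5 thus counts as kept at -0.30 with brighter spots. No gene of the set passed under any setting except Pdia4 without L-DOPA replicate 1, which gave 1 passing gene of the set after L-DOPA and 1 against the non-lesioned side (range over left-out arrays 0 to 1). The replicate block gave 0 genes of the set in every comparison, and moved the features called from 84 to 34 for L-DOPA, from 93 to 13 for zonisamide and from 225 to 32 for L-DOPA against the non-lesioned side. The block left Creld2 at 0.65 ± 0.16 after L-DOPA. Those 3 counts were 30, 8 and 40 under normexp, 48, 45 and 83 without a filter, 0, 0 and 0 with only the groups compared, 0, 0 and 6 with slide as a fixed block, and 2 to 219, 0 to 270 and 9 to 365 when an array was left out. Quantile normalization gave 120 for the last, and slide as a random block 188 for zonisamide. Without the 5 arrays of high spot spread, 1 feature passed for L-DOPA and 1 for zonisamide, and no comparison with the non-lesioned side could be made. Where 0 passed, slide as a fixed block gave 5 with both drugs against the non-lesioned side, the brighter spot gave 1 after the lesion, and left-out arrays gave up to 13, 3 and 10 after the lesion, with both drugs and with both against the non-lesioned side.

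Reversed values were these. Normexp gave Creld2 0.00 for zonisamide, Calr 0.18 for the lesion and -0.23 for L-DOPA, and Derl1 0.15 for the lesion. The mean of a gene's probes gave Hspe1 0.61 and Ssr1 0.08 for the lesion, Derl3 -0.06 for L-DOPA against the non-lesioned side, and Hspe1 0.19 for both drugs against that side. Slide as a fixed block gave Eif2ak3 0.05 for the lesion. Without non-lesioned replicate 2, Hspe1 was at 1.21 and 0.22, and without replicate 3 at 1.14 and 0.15, for the lesion and both drugs against that side. Its ranges over left-out arrays were -0.48 to 1.21 and -0.33 to 0.22. In these fits the brightest probe was chosen again over the arrays left in. On the main probe the non-lesioned arrays of Hspe1 (3.38, 3.51 and 3.53) all lay above lesioned saline (2.91, 3.08 and 3.12). They also lay above the zonisamide arrays (3.18, 3.26 and 3.12), so the positive values came from another probe of Hspe1. Without zonisamide replicate 3, Dnajb9 was at 0.09 for zonisamide and 0.04 for both drugs against the non-lesioned side, and Hsp90aa1 at 0.00 for both drugs, as it was without the arrays of high spot spread; the lowest values over left-out arrays were -0.51, -0.57 and -0.85. The brighter spot gave Pdia4 -0.09 for zonisamide. For the genes other than Hspe1 the cause was not tested.

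Without L-DOPA replicate 1, Hspb1 passed at 1.81 for L-DOPA and -1.75 for zonisamide, and Bag3 at 0.95 and -1.10. Ddit4 passed with the mean of its probes, at -1 for L-DOPA and -0.98 for L-DOPA against the non-lesioned side, where it also passed without zonisamide replicate 3. Bag3 passed for zonisamide, at -0.95, with slide as a random block. Bag3 against the non-lesioned side was at 1.00 under the replicate block and did not pass. The pooled spread limits what 3 arrays can resolve.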
